A study of Cyanidioschyzon merolae with 8 samples.

Results

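The genes described here are 17 nuclear genes of the red alga Cyanidioschyzon merolae whose transcripts were abundant in every condition and differed little between darkness and light. They were chosen from the authors' deposited table of FPKM, that is, sequenced fragments relative to the length of the transcript and the size of the library. A nuclear gene ID was kept when all 4 of its FPKM values were at least 400 and when both of its log2 ratios of light over dark control lay between -0.4 and 0.4, a change of at most 1.32-fold. The table lists 5092 IDs, of which 4793 lie on nuclear chromosomes. Of the nuclear IDs 145 reached 400 FPKM in all conditions, and 17 of the 145 met the bounds. The 4 FPKM values and the light ratios therefore chose the genes, and both are given below as a description.

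All libraries came from wild-type cells of strain 10D. The BL(-) cells were kept in the dark for 36 h, and the BL(+) cells, kept dark in the same way, were then given 30 min of blue light at 15 µmol m-2 s-1. The RL(-) cells were kept in the dark, but the labels state the hours of darkness for the blue experiment alone. The RL(+) cells, also kept dark, were then given 30 min of red light, whose intensity is not stated in the labels. Each of these 4 groups holds 2 biological replicates, from cultures first grown in constant light (100 µmol m-2 s-1) at 42 °C and pH 2.3. The intensity meter was read at 365 nm for blue and at 630 nm for red light.

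C. merolae is a unicellular alga of hot acidic springs, with a compact nuclear genome in which few genes carry introns. In algae a move from darkness to light reshapes the transcripts of photosynthesis, metabolism and the cell cycle, while many transcripts needed at all times are commonly thought of as housekeeping and serve as references for relative measurements. FPKM is itself a relative scale, and the number of transcript copies per cell was not measured. The reference table marks all 17 genes as protein-coding but names no product for any of them, so they are given by ID with no role.

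The table holds 1 FPKM value for each condition, made from both replicates together, so the spread between replicates and the depth of the libraries are unknown. Any order of levels or difference between conditions below has no replicate check unless the authors' own test is named. The median FPKM over nuclear IDs was 99.2 in BL(-), 97.2 in BL(+), 112 in RL(-) and 98.8 in RL(+), and the summed nuclear FPKM was lower in the red experiment, at 896844 in RL(-) against 1.07e+06 in BL(-).

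CMC053C, on chromosome 3 at 122628 to 123195, was the most abundant of the 17. It stood at 2429.6 FPKM in BL(-), 2154 in BL(+), 2210.1 in RL(-) and 2014 in RL(+). The highest of these is 1.21-fold the lowest, which is the narrowest spread among all 145 abundant nuclear genes. It ranked 50 and 56 among nuclear IDs in BL(-) and BL(+), and 22 and 21 in RL(-) and RL(+), so its rank moved while its FPKM hardly did.

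A further 5 genes kept close levels across all 4 conditions. CMQ251C, on chromosome 17 at 640513 to 641239, was at 1456 FPKM in BL(-), 1209 in BL(+), 1222 in RL(-) and 1118 in RL(+). CMS099C, the least abundant of the 17 and located on chromosome 19 at 252336 to 252773, was at 449, 454, 561 and 459 FPKM in the same order. CMD148C, on chromosome 4 at 386616 to 388707, was at 558, 727, 583 and 768 FPKM. In CMS099C the dark control of the red experiment stood above 3 nearly equal values, and in CMD148C both lit conditions stood above both dark controls. CMR457C, on chromosome 18 at 1127493 to 1127859, was at 997 and 944 FPKM in the dark and lit cells of the blue experiment and at 1315 and 1380.2 in those of the red experiment. CMD121C, on chromosome 4 at 313317 to 314634, was at 1016, 967, 702 and 687 FPKM. These 5 and CMC053C are the genes whose log2 FPKM spanned less than 0.6 over the 4 conditions.

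The other 11 genes spanned more than 0.6, and in all of them both blue-experiment values lay above both red-experiment values. CMD121C had that order as well, and CMR457C and CMS099C the reverse, each at a narrower span. CML106C, on chromosome 12 at 241217 to 241513, showed the widest spread of the 17, with 2419 FPKM in BL(-), 2175 in BL(+), 800.3 in RL(-) and 1006 in RL(+). CMJ057C, on chromosome 10 at 172607 to 173266, was at 1269 and 1028 FPKM in the blue experiment and at 430 and 550 in the red experiment, dark before lit. CMB004C, on chromosome 2 at 10550 to 11014, was at 1403 and 1556 against 542 and 596 FPKM. In each of these 3 genes both blue-experiment values lay above both red-experiment values. The same held for CMQ247C, on chromosome 17 at 629951 to 632815, with 2085 and 1772 against 866 and 766 FPKM. CMJ110C, on chromosome 10 at 323715 to 324332, was at 1113 and 850 against 487 and 421 FPKM. CML242C, on chromosome 12 at 615840 to 616871, was at 1286 and 1110 against 568 and 608 FPKM. These 6 genes all stood at least 2-fold lower in RL(-) than in BL(-).

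The last 5 genes showed the same order at a smaller distance. CMP081C, on chromosome 16 at 198428 to 199205, was at 929 FPKM in BL(-) and 1165 in BL(+), against 582 in RL(-) and 681 in RL(+). CMO169C, on chromosome 15 at 433462 to 434473, was at 938 and 1057 against 543 and 561 FPKM. CMR099C, on chromosome 18 at 265163 to 266123, was at 1122 and 1141 against 694 and 905 FPKM. In these genes the values of the blue experiment again lay above those of the red. CMN158C, on chromosome 14 at 399135 to 399684, was at 725 and 770.2 against 445 and 453 FPKM, and CMD084C, on chromosome 4 at 204272 to 204755, at 859 and 873 against 586 and 526 FPKM. Positions are those of the authors' deposited loci, and no source used here names their genome build.

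**Figure D1:**
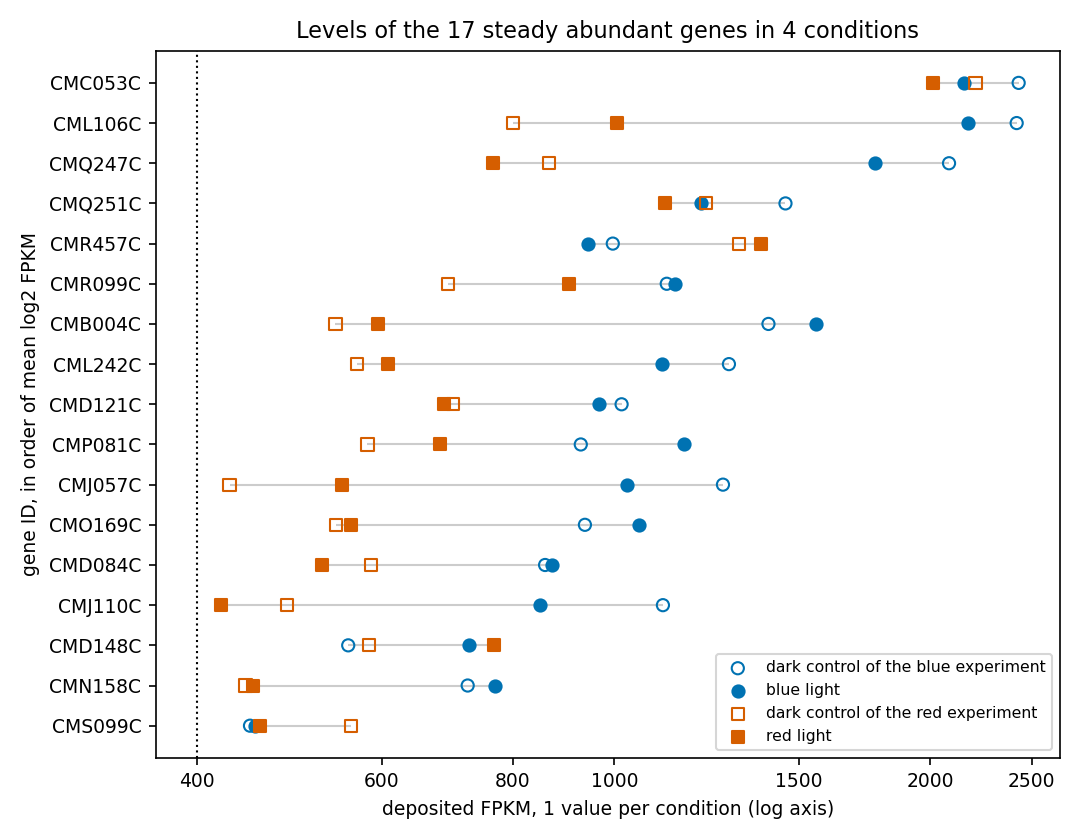
Deposited FPKM of the 17 genes on a log axis, 1 point per gene and condition: circles are the blue and squares the red experiment, open symbols the dark controls and filled symbols the lit cells, the grey lines span the 4 values, and the dotted line is the floor of 400 FPKM. For 12 genes both circles lie to the right of both squares, while CMC053C spans only 1.21-fold.

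The first pair of comparisons asks what light does to dark-kept cells, and for these genes the bounds of the rule fix the answer to be small. Under blue light 8 of the 17 were higher and 9 lower than in the dark control, with log2 ratios from -0.39 in CMJ110C to 0.38 in CMD148C and a median of -0.07. Under red light 10 were higher and 7 lower, from -0.29 in CMS099C to 0.40 in CMD148C, with a median of 0.05. The sign was the same under both lights for 11 genes, with 6 higher and 5 lower under both. Another 4 were lower under blue and higher under red light, and CMD084C and CMS099C were higher under blue and lower under red. CMD121C, CMR457C and CMN158C stayed within 0.1 of no change on the log2 scale under both lights.

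None of the 17 passed the authors' deposited test. Under blue light 0 of 17 had a q-value under 0.05, where the authors called 40.6% of 4517 tested genes. Under red light it was 0 of 17, where they called 42% of 4447. The shares of tested genes were taken over all tested IDs, not the nuclear ones alone. Cuffdiff is the testing tool in the submitters' processing notes. At a q-value under 0.01 the count was 0 as well, against 27.9% of tested genes under blue and 28.5% under red light. At an unadjusted p-value under 0.05 it was also 0 under each light, against 49.2% and 52% of all tested genes. The smallest p-values in the authors' deposited table were 0.268 for CMJ110C under blue and 0.228 for CMJ057C under red light. Since the rule used these contrasts, the counts say nothing further about the genes. Nor do they show an absence of change. Among the 145 abundant nuclear genes, the smallest change that the authors' deposited table calls was 1.65-fold under blue and 1.68-fold under red light. Changes of up to 5.82-fold and 6.15-fold were not called.

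Genes lay close to the bounds on both sides. Just inside them were CMD148C, with ratios of 0.38 and 0.40 under blue and red light, CMJ110C with -0.39 and -0.21, and CMR099C with 0.02 and 0.38. Just outside were CMI219C with -0.06 and 0.41, CMQ117C with 0.41 and -0.24, and CMD061C with -0.25 and -0.41. At the floor, CMJ110C was kept with a lowest value of 421 FPKM, CMJ057C with 430 and CMN158C with 445, whereas CMD079C at 393, CMM066C at 379.8 and CMP225C at 366 FPKM met the bounds but not the floor.

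**Figure D2:**
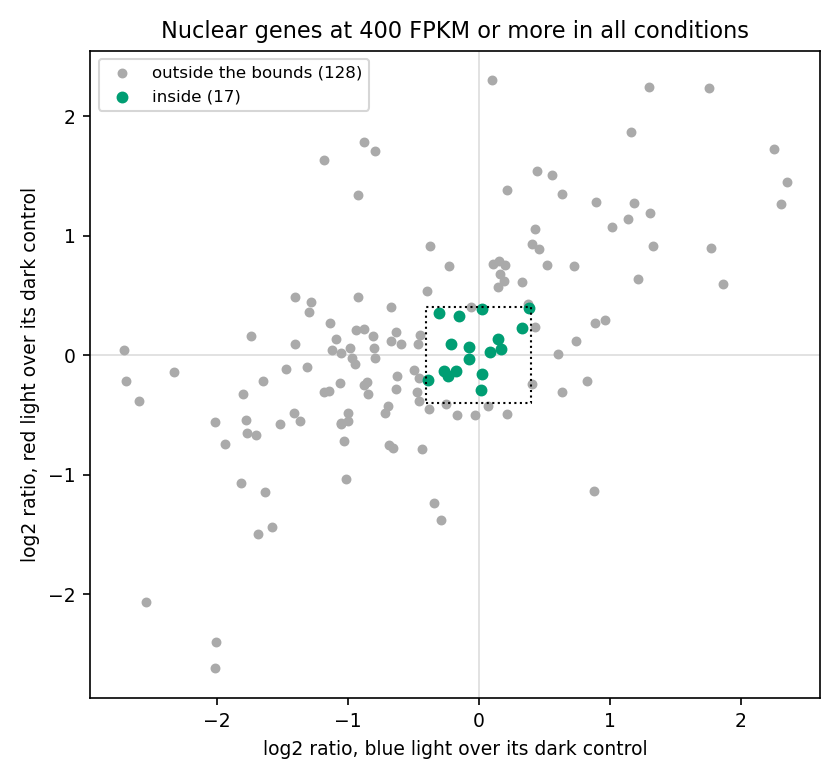
Log2 ratio of light over dark control under blue light (horizontal axis) and red light (vertical axis) for the 145 nuclear genes at 400 FPKM or more in all 4 conditions, with the bounds of 0.4 as a dotted square. The 17 genes inside are green; of the 128 grey genes 48 are outside under blue light alone, 22 under red light alone and 58 under both.

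Membership depended on how the red comparison was scaled. The median log2 ratio of tested nuclear genes was -0.26 under red and -0.01 under blue light. With each ratio taken relative to its median, 11 of the 17 stayed within the bounds, and CMB004C, CMD148C, CMJ057C, CML106C, CMP081C and CMR099C left them while 6 other genes entered. On that scale 16 of the 17 stood above the median change under red light, with a median of 0.31, and the exception was CMS099C. The 6 genes CMC053C, CMD084C, CMD121C, CMJ110C, CMQ247C and CMQ251C changed sign under red light on that scale, and none of the 17 did under blue light.

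Steady genes were about as frequent among abundant genes as among all nuclear genes. Within both bounds were 13.1% of the 4346 nuclear genes tested in both comparisons with both ratios, and 11.7% of the 145 abundant ones. The share rose from 1.41% of genes whose lowest FPKM was under 25, through 7.84% at 25 to 50, 15.3% at 50 to 100 and 19.3% at 100 to 200, to 20.4% at 200 to 400. The class at 400 or more stood below the 3 classes before it. Of the 145 abundant genes, the authors' deposited table calls 54 under blue light, 13 higher and 41 lower, and 30 under red light, 22 higher and 8 lower. These shares are a description and were not tested.

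The difference between the dark controls is the first that the bounds did not fix, although the floor of 400 FPKM limits it. Of the 17 genes 14 were lower in RL(-) than in BL(-), with a median log2 ratio of -0.69, a 1.62-fold lower level. Lower in RL(-) were 82.4% of the 17 against 41.9% of 4596 nuclear genes with all values above 0. The range ran from -1.60 in CML106C, -1.56 in CMJ057C and -1.37 in CMB004C to 0.32 in CMS099C and 0.40 in CMR457C. At least 2-fold lower were 6 of the 17, or 35.3%, against 12.4% of 4596 nuclear genes with all values above 0. Within 0.4 of equal between the dark controls were 4 of the 17, CMC053C, CMQ251C, CMD148C and CMS099C, or 23.5%, against 28.1% of the other abundant genes and 36.5% of nuclear genes. Both conditions are dark-kept wild-type cells, and what differed between the cultures or libraries of the experiments cannot be told apart.

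A shift of like size stood in the abundant genes that were not steady. Among the 128 abundant genes outside the bounds, 101 were lower in RL(-), with a median of -0.76, and 43.0% were at least 2-fold lower. Over the 4596 nuclear genes the median was 0.18 in the other direction. Genes within the bounds at lower levels lay nearer to 0. The median was -0.11 for 66 genes whose lowest FPKM was 200 to 400, -0.02 for 185 genes at 100 to 200 and 0.10 for 221 genes at 50 to 100.

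**Figure D3:**
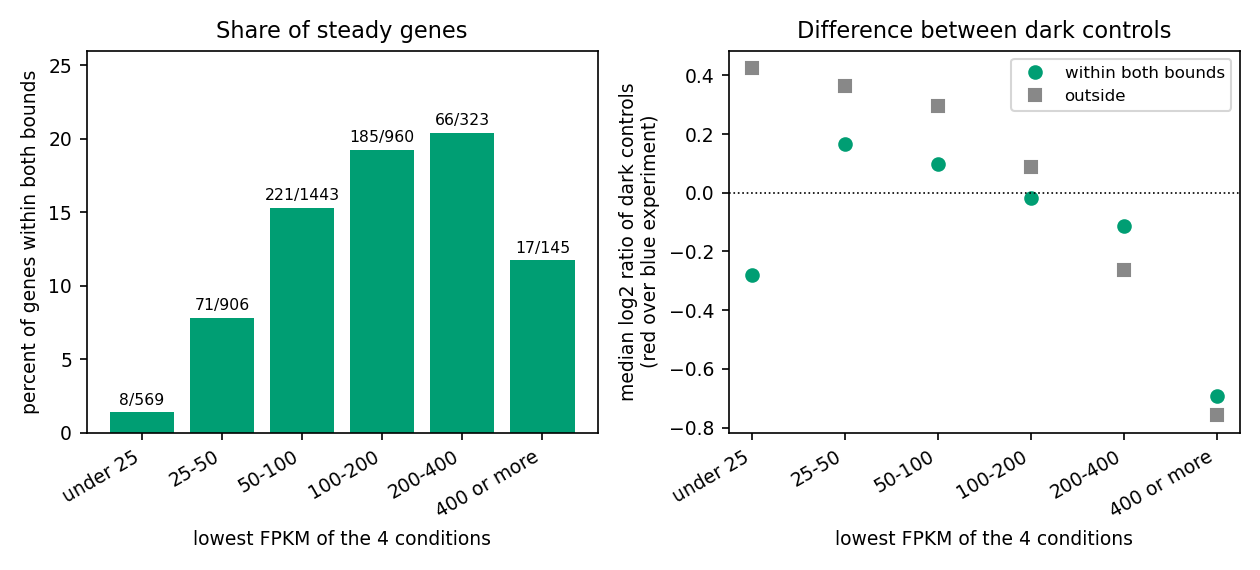
Nuclear genes tested in both comparisons, in classes by the lowest of their 4 FPKM values: the bars give the percent within both bounds, with counts above them, and the points the median log2 ratio of the dark controls for genes within (circles) and outside (squares) the bounds. The share of steady genes is 20.4% at 200 to 400 FPKM and 11.7% at 400 or more, and in the top class the medians are -0.69 within and -0.76 outside the bounds.

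The size of the shift depends on the scaling between experiments, on which the sources used here give no detail. Relative to the nuclear median it was -0.87, with 15 of 17 genes lower and CMD148C changing sign. With the conditions set to equal summed nuclear FPKM, a scaling chosen after the values had been seen, it was -0.43 with 12 of 17 lower, and CMC053C and CMQ251C changed sign. For the other 128 genes the values were -0.93 and -0.50. These values keep the 17 genes fixed. For genes chosen anew on light ratios relative to the nuclear median, the dark controls as deposited gave a median of -0.33, with 11 of 17 lower. For genes chosen anew under equal summed nuclear FPKM, the median on that scale was -0.27, with 11 of 19 lower.

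The lit cells differed between experiments by much the same amount, which the rule enforces in part, since it lets this log2 difference depart from that of the dark controls by at most 0.8. The median log2 ratio of RL(+) over BL(+) was -0.77 for the 17 genes, 14 of them lower, from -1.39 in CMB004C to 0.55 in CMR457C. For the 128 other abundant genes it was -0.21, with 81 lower, and for all nuclear genes -0.19, with 59.7% lower. Under equal summed nuclear FPKM the medians were -0.39 and 0.16. The other abundant genes had a median log2 ratio of -0.63 under blue light and 0.05 under red light. The lit difference of a gene is its dark difference plus its red minus its blue light ratio. The rule held both light ratios near 0 for the 17 but not for the 128. The contrast between the 17 and the 128 in lit cells therefore follows in part from the rule, and it was not tested.

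Over all 4 conditions, 10 of the 17 genes spanned less than 2-fold and 7 spanned more. Among the other abundant genes 27 of 128 spanned less than 2-fold, and among all nuclear genes with 4 values 33.0% did. The rule tilts this comparison, since it caps both light ratios of the 17 and each of the 128 exceeded a bound. For 12 of the 17 both values of the blue experiment lay above both of the red experiment, against 18% of all nuclear genes and 50 of the 128 other abundant genes, and small light ratios make such a separation easier to reach. In 2 of the 17, CMR457C and CMS099C, both values of the red experiment lay above both of the blue. That order held for 14.1% of all nuclear genes and 7 of the 128. In CMC053C, CMQ251C and CMD148C the values interleaved. The word steady therefore describes the 17 genes within each experiment, and for 10 of them it also holds to within 2-fold across both.

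**Figure D4:**
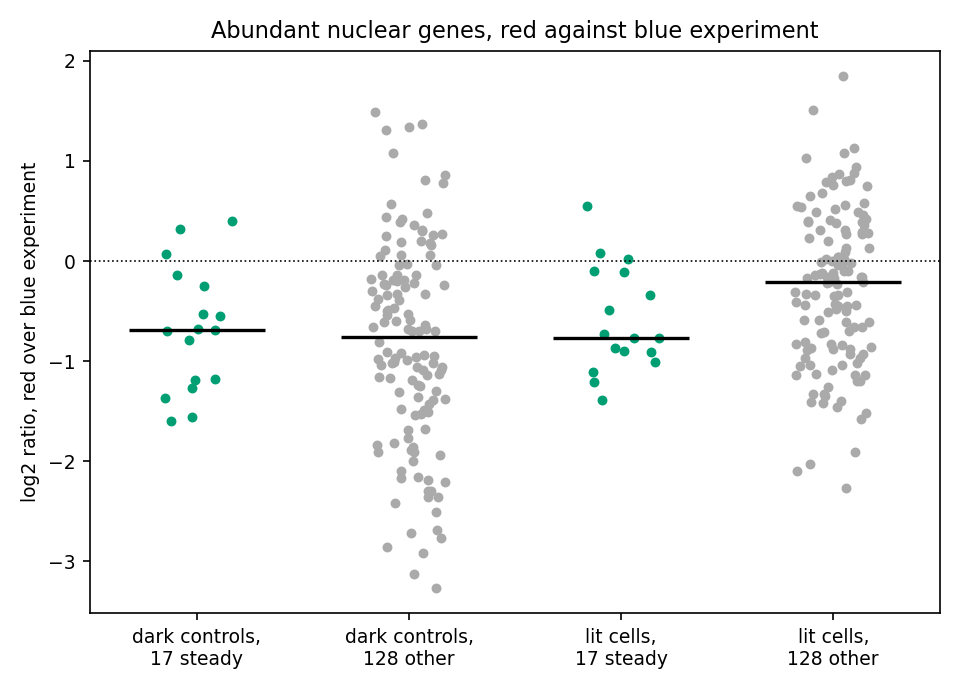
Log2 ratio of the red over the blue experiment in dark controls (left pair) and lit cells (right pair), 1 point per gene, for the 17 steady and the 128 other abundant nuclear genes, with the median as a bar. In the dark controls the medians are -0.69 and -0.76. In the lit cells they are -0.77 and -0.21, a contrast that follows in part from the bounds on the light ratios.

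The 17 genes made up a small part of the nuclear transcript pool. Their summed FPKM was 1.96% of the nuclear sum in BL(-), 1.88% in BL(+), 1.46% in RL(-) and 1.65% in RL(+). The 128 other abundant genes made up 29.5% in BL(-), 20.6% in BL(+), 19.8% in RL(-) and 21.0% in RL(+), so their share was largest in BL(-). The median level of the 17 was 1113, 1057, 583 and 681 FPKM in the same order, and that of the other 128 was 1532, 1127, 748 and 896 FPKM.

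Both the steady and the other abundant genes had a median length well under that of all nuclear genes. The reference table of assembly ASM9120v1 gives a gene length for all 17. Its median was 660 bp, with a range from 297 bp in CML106C to 2865 bp in CMQ247C. The median was 627 bp over 127 of the other abundant genes and 1293 bp over 4579 nuclear genes. FPKM divides by length, so length enters the rule through the level. CMC053C is annotated over 568 bp, which is not a multiple of 3, as for 19 of 4752 nuclear protein-coding genes with a reference length and 4 of 144 abundant ones. The reference table does not give exons, so these lengths could include introns and are not shown to be coding lengths. Which length entered the deposited FPKM is not known here.

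The genes lay scattered over 11 of the nuclear chromosomes, with 3 on chromosome 4 and at most 2 on any other. The closest pair among them, CMQ247C and CMQ251C, lay 7697 bp apart on chromosome 17 with 3 IDs between them, and no member was the nearest neighbour of another. No locus overlapped that of another ID. CMJ110C lay 17 bp from CMJ111C and CML106C 23 bp from CML107C, and no label speaks of a strand-specific kit, so reads from these ends could have been counted for either gene. CML107C was at 648 FPKM in BL(-), 614 in BL(+), 152 in RL(-) and 174 in RL(+), so it too was flat within each experiment and lower in the red. CMJ111C, at 605, 516, 652 and 1095 FPKM, was not flat under red light, where the authors' deposited table gives q = 0.0434.

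Most genes next to the 17 were not steady themselves, which is also true of most nuclear genes. Of the 34 nearest neighbours, 1 on each side of each gene, 32 were tested in both comparisons with both ratios. Of these 8 lay within both bounds, or 25%, against 13.1% of nuclear genes. The neighbours were not matched to that background on level. Across the classes by lowest FPKM the share ran from 1.41% to 20.4%, so the contrast is not read further. The authors' deposited table calls 13 of the 32 under blue light, or 40.6%, the same as the 40.6% of all tested genes. Under red light it calls 8, or 25%, against 42% of all tested genes. CMO169C lay beside CMO170C, which went from 85.3 to 407 FPKM under blue light, and CMQ247C beside CMQ246C, which stood at 102 FPKM in BL(-), 385 in BL(+), 55.3 in RL(-) and 300.3 in RL(+). CML242C had CML240C as a neighbour, at 13.5 FPKM in the dark and 57.2 under blue light. CMR099C and CMR457C were the genes with a neighbour within the bounds on both sides, at far lower levels for CMR459C, which stood at 35.8 to 39.2 FPKM. Only CMJ111C among the 34 neighbours was at 400 FPKM or more in all conditions.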

How the data were processed

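RNA of 8 libraries was selected on oligo(dT) beads and sequenced as pairs of 75 bp reads, per the labels' protocols. Tools in the submitters' processing notes are Cuffdiff, TopHat, TopHat2 2.0.5, Trimmomatic 0.32 and FastQC 0.11.5, and no source used here names the genome build. The authors deposited FPKM, 1 value per condition with replicates combined, so depth is unknown and neither an SD nor a test on libraries could be given. The authors deposited a p-value and a q-value per gene and comparison, and the set of tests behind the q-values is not stated in the sources used here.

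Ratios were recomputed as log2 of lit over dark FPKM with no pseudocount. Start positions were raised by 1 to count from 1. For some of the 17 the resulting span exceeds the reference length by 1 bp, as in CMR457C with 367 against 366 bp. IDs were matched to RefSeq assembly ASM9120v1 by locus tag, and only lengths and gene types were taken from it. All 17 genes are named, under the rule for a small group, with the 3 genes nearest outside each threshold. Neighbouring genes were named after their values were seen. The genes and all choices were made with earlier results of these data known. Gene lists by product, promoter motifs and protein comparisons were not used here. Calculations used Python 3.11.15, numpy 2.4.6, pandas 2.3.3, scipy 1.17.1 and matplotlib 3.10.9. The selection was tested on simulated data, in which every gene not planted failed both the floor and the bounds. An error that let genes past only the floor or only the bounds would not show there.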

Additional observations from a re-analysis of the deposited data

How the results depend on the processing

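The number of genes followed the thresholds: a floor of 300 FPKM gave 35, a floor of 800 gave 4, bounds of 0.3 gave 11 and bounds of 0.5 gave 32. With a pseudocount of 1 it was 17, with ratios relative to the nuclear median 17, of which 11 shared, without loci under 300 bp 16, and without loci of more than 1 ID 17. Conditions scaled to equal summed nuclear FPKM gave 19, of which 13 shared, and leaving out genes within 100 bp of another locus 15; both were chosen after seeing the data. The median log2 ratio of the dark controls stayed below 0 under each of these, from -0.69 to -0.19, and was -0.87 with the experiments centred on their nuclear median. The median for the lit cells ran from -0.77 to -0.10, the latter with a floor of 800 FPKM, where 4 genes remained. The share of the summed nuclear FPKM in BL(-) was 0.679% with that floor, 1.27% with bounds of 0.3 and 3.46% with bounds of 0.5. The median reference gene length ran from 467 to 738 bp. The counts of genes past the authors' test were 0 at q-values under 0.05 and 0.01, at p-values under 0.05 and with Benjamini-Hochberg values within each comparison. No paired analysis was possible because the table holds no values per library, and for the same reason no replicate could be left out.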
